A study of Homo sapiens with 4 samples.

Results

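The genes described here are CKAP5 and 6 further genes of microtubule-binding proteins, MAP1A, MAP1B, MAP2, CLIP1, CAMSAP1 and MACF1. Their peaks were taken as all deposited peaks that overlapped the annotated span of one of the 7 genes on GRCh38, with strand ignored. This gave 24 of the 1766 peaks in 3 lists, and each of the 7 genes had a peak in at least 1 list. In the whole series 847 of 20056 annotated protein-coding genes (4.22%) had one, but the 7 were chosen with these peaks known, so nothing is read from their count. The libraries were made from the RD line, which derives from an embryonal rhabdomyosarcoma, a childhood tumour with features of developing skeletal muscle. RNA was captured with an even or an odd set of biotinylated antisense probes, both directed at exon 2 of ZNF609, or with control probes against a bacterial mRNA, LacZ, that human cells lack. The ZNF609 pull-downs are named for circZNF609, the circular RNA formed from that exon. A listed peak in that exon does not tell circular from linear ZNF609 RNA. There was 1 library per probe set from this 1 cell line, so no value has a replicate error and no test between probe sets was made.

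Microtubules are hollow polymers of tubulin that grow and shrink mainly at their plus ends. Proteins that bind them set how fast they grow, shield their ends, stiffen and bundle the polymer, or tie it to actin and membranes. CKAP5, also called ch-TOG, is a polymerase that loads tubulin onto plus ends and serves the mitotic spindle, and the title of the series names it. MAP1A, MAP1B and MAP2 coat the length of microtubules and are best known from neurons.

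The even list held 502 peaks with 482418 reads in peaks, the odd list 542 peaks with 279415 reads, and the LacZ list 722 peaks with 219401 reads. Each peak consists of bins of 170 bases, and its height is given as reads per bin, without scaling to library size. Even peaks had a median of 293 reads per bin and a minimum of 108, odd peaks a median of 221.5 and a minimum of 105, and LacZ peaks a median of 115 and a minimum of 38. Each peak also carries an unnamed deposited score, which is given here in steps of 1/4434. ZNF609 itself had 1 even peak and 3 odd peaks and 0 LacZ peaks. The even peak, centred at 17.72% of the gene, overlapped the odd peak at 17.75%. By height the even peak, with 704 reads per bin, ranked 77 of 502, and that odd peak, with 394, ranked 109 of 542. The targeted gene was thus not at the top of either list. The further odd peaks, at 93.11% and 94.65%, lay 170340 and 173740 bases from the even peak. Exon positions were not used, so no peak was placed in exon 2. Of 24 markers of muscle cells, 6 had a peak, all of them with even probes, 3 also with odd probes and 2 also with LacZ probes, and the myogenic factors MYOD1 and MYOG had 0. Of 10 markers of other cell types, only KRT18 had a peak, in the odd list. Over all 20056 annotated protein-coding genes the share with a peak was 4.22%. By list it was 1.54% with even, 1.64% with odd and 2.22% with LacZ probes. A list of captured peaks is not a measure of expression, so genes with 0 peaks are not shown to be silent.

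The 7 genes fell into 5 patterns. CKAP5 had even and odd peaks and 0 LacZ peaks, and MAP1B had peaks in all 3 lists, as did 5.31% of the 847 protein-coding genes. MAP1A and MACF1 were found with even and LacZ probes, CLIP1 with odd probes alone, and MAP2 and CAMSAP1 with LacZ probes alone. In total the genes held 7 even, 6 odd and 11 LacZ peaks, which is 1.39%, 1.11% and 1.52% of the peaks of those lists. They held 3.43% of the reads in even peaks, 1.83% in odd peaks and 1.10% in LacZ peaks.

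**Figure D1:**
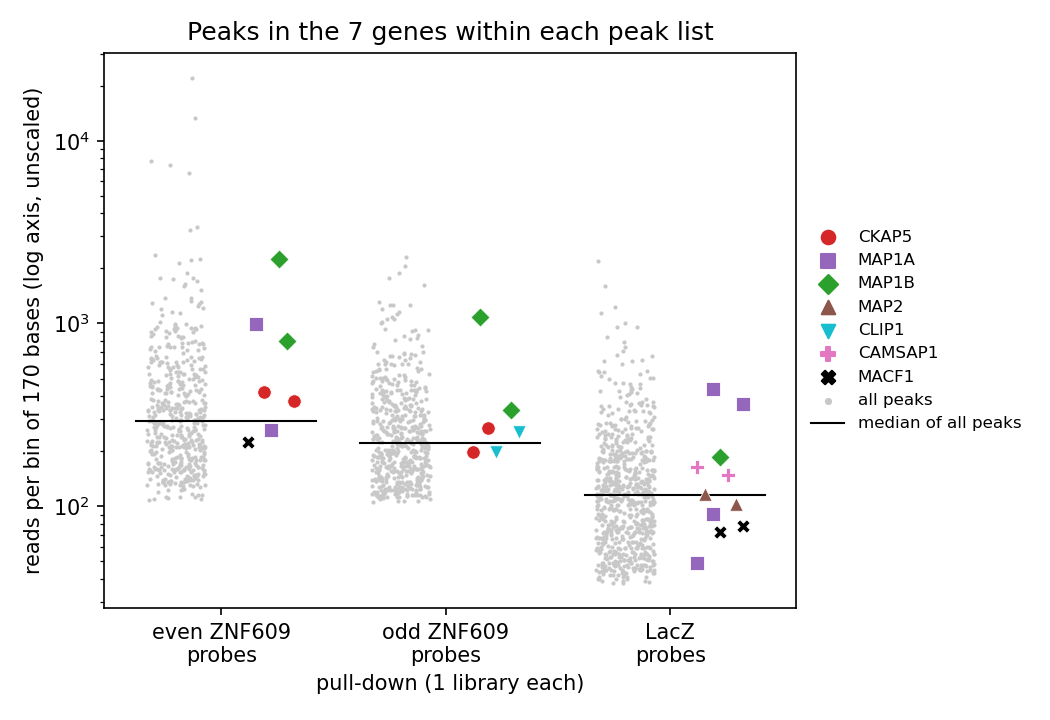
Reads per bin (log axis, unscaled) of every peak in the even, odd and LacZ lists (grey points, 1 library each), with the peaks of the 7 genes as coloured symbols and the median of all peaks as a line. MAP1B gave the highest of the coloured symbols with even (2243) and odd (1091) probes, and MAP1A with LacZ probes (438).

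CKAP5 lies on chromosome 11 at 46743048 to 46846280, spans 103.23 kb and is transcribed from the minus strand. It was recovered at 2 places, each 1 bin wide, and the even and odd peaks had the same ends. At chr11:46795561-46795730 even probes gave 423 reads per bin and odd probes 269. At chr11:46790461-46790630 the even peak held 376 reads and the odd peak 197. The LacZ list had no peak in the gene. The place nearer the start of the gene was thus the higher one with both ZNF609 probe sets.

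By height, the CKAP5 peaks were in the middle of their lists. Among 502 even peaks they ranked 163 and 179, and among 542 odd peaks 204 and 309, so the lower odd peak stood under the list's median. By p-value they stood higher, at ranks 85 and 89 with even probes and 129 and 221 with odd probes. Together they held 799 reads over 340 bases with even probes and 466 reads over 340 bases with odd probes. As a share of all reads in peaks this was 0.166% of the even list and 0.167% of the odd list. The peaks lay 50.55 and 55.65 kb from the annotated start of the gene, 4930 bases apart, close to its middle. The closer one was centred at 49.05% of the span and the other at 53.99%.

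Of the 847 protein-coding genes with a peak in any list, 4.96% had even and odd peaks and 0 LacZ peaks in the gene, and CKAP5 was the 1 of the 7 genes in that class. When the deposited p-value was limited to at most 0.001, CKAP5 kept 1 of its 2 shared places. The place kept, chr11:46795561-46795730, had p-values of 7.27e-05 with even probes and 0.000777 with odd probes. At the other place the p-value was 9.32e-05 with even probes and 0.00229 with odd probes.

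The absence of LacZ peaks from CKAP5 was set against what the LacZ list could hold. Higher scores went with higher read numbers among the weakest listed peaks, so like scores were compared. The CKAP5 bins had scores of 10 and 13 steps. Among LacZ peaks of 1 bin within 2 steps of these scores, the weakest had 45 reads (42 peaks) and 48 reads (40 peaks), with medians of 68 and 78. The 4 CKAP5 peaks of the ZNF609 probes had 197 to 423 reads. Every listed even or odd peak lay above those medians, since the even list began at 108 reads and the odd list at 105. Standing above them is thus nothing particular to CKAP5. The read numbers are unscaled, the deposited lists do not give the depth of a library, and LacZ reads in the CKAP5 bins below the listed minimum cannot be seen.

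**Figure D2:**
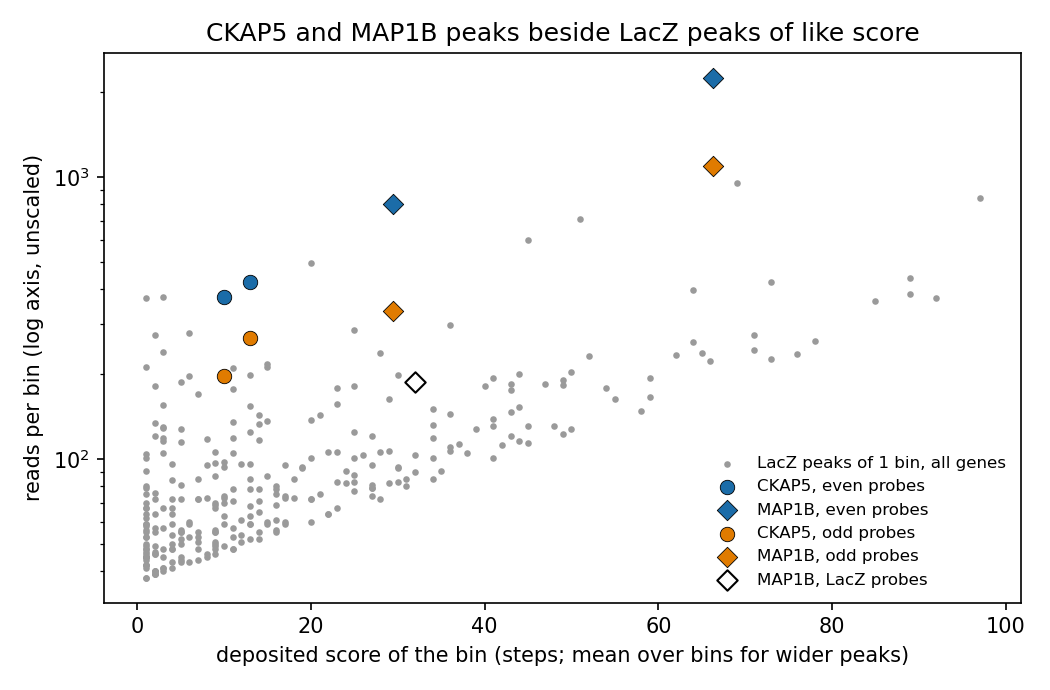
Reads per bin (log axis, unscaled) against the deposited score in steps, for LacZ peaks of 1 bin in all genes (grey) and for the even, odd and LacZ peaks of CKAP5 and MAP1B. The lower edge of the grey points rises with the score. The CKAP5 peaks at 10 and 13 steps stand at 197 to 423 reads, and the weakest LacZ peaks of like score at 45 and 48. Every listed even or odd peak lies above 45 and 48 reads.

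MAP1B, which encodes a large microtubule-associated protein prominent in growing axons, gave the highest peaks of the 7 genes with even and odd probes. The gene lies on chromosome 5 at 72107475 to 72209565, spans 102.09 kb and is transcribed from the plus strand. At chr5:72195091-72195600, 3 bins wide, the even peak reached 2243 reads per bin, rank 9 of 502, and the odd peak 1091, rank 13 of 542. At chr5:72196111-72196450, 2 bins wide, the even peak reached 803.5 reads per bin, rank 59, and the odd peak 336, rank 145. Even and odd peaks had the same ends at both places, and no LacZ peak overlapped them.

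LacZ probes gave 1 peak in MAP1B, at chr5:72199681-72200020, with 187 reads per bin at rank 169 of 722. It began 3230 bases past the end of the second shared place. Among peaks of 1 bin and like score, the weakest even peak had 224 reads and the weakest odd peak 227. Both lay above the 187 reads of the LacZ peak, so the even and odd lists say little about its place. The 5 MAP1B peaks together held 8336 reads over 850 bases with even probes, 3946 reads over 850 bases with odd probes and 374 reads over 340 bases with LacZ probes. These were 1.73%, 1.41% and 0.170% of the reads in peaks of each list. All 5 peaks lay within 4.93 kb, or 4.83% of the span, at 86.07% to 90.48% of the way along the gene.

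The stronger MAP1B place had a high score of 66.33 steps, against a median of 12.5 over all even peaks and 10.58 over all odd peaks. Its p-values were 0.000159 with even probes and 0.00193 with odd probes, so it ranked 106 and 202 by p-value despite its height. The second place had p-values of 2.59e-05 with even probes and 0.00231 with odd probes. With the p-value limited to at most 0.001, 0 of the 2 MAP1B places were shared, because both odd peaks missed that limit. Among LacZ peaks of 1 bin within 10% of the score of the stronger place, the weakest had 222 reads (8 peaks), and for the second place it had 72 reads (20 peaks).

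Of the 847 genes, 4.84% had an even peak that overlapped an odd peak with no LacZ peak at that place, and CKAP5 and MAP1B were the 2 of the 7 genes to do so. A share of 1.42% had 2 or more such places, which both genes had. Of the 7 even peaks in the 7 genes, 4 (57.1%, exact 95% interval 18.4 to 90.1) overlapped an odd peak, against 18.5% of all even peaks. With LacZ peaks, 1 of the 7 (14.3%, 0.361 to 57.9) overlapped, against 14.7% of all even peaks. An even peak overlapped 4 of the 6 odd peaks (66.7%, 22.3 to 95.7), against 17.3% of all odd peaks. A LacZ peak overlapped 0 of the 6 (interval 0 to 45.9), against 16.2% of all odd peaks. The intervals cover counting error alone, the 4 overlapping peaks come from 2 genes, and the genes were chosen with earlier results of these data known, so these shares only describe the 7 genes.

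The even and odd read numbers were next compared where the peaks had the same ends. Over all 52 such pairs of peaks, the ratio of even over odd reads per bin had a median of 1.33, with quartiles of 0.976 and 2.09. CKAP5 had ratios of 1.57 and 1.91, within those quartiles. MAP1B had ratios of 2.06 and 2.39, and the second of these lay above the upper quartile, with 41 of 52 pairs below it. Each of the 4 ratios was above the median and within the range of all pairs, 0.242 to 19.0.

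**Figure D3:**
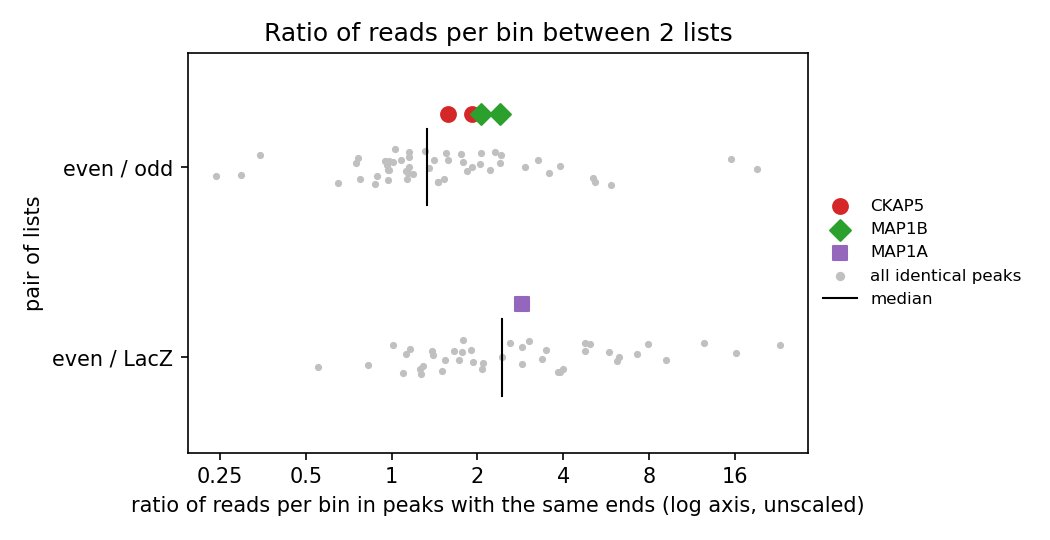
Ratio of reads per bin (log axis, unscaled) between the even and odd lists and between the even and LacZ lists, for peaks with the same ends in both, with all pairs in grey, their median as a line and the pairs in CKAP5, MAP1B and MAP1A as coloured symbols. CKAP5 (1.57 and 1.91) and MAP1B (2.06 and 2.39) lie to the right of the even over odd median of 1.33, and MAP1A (2.87) close to the even over LacZ median of 2.44.

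MAP1A, which encodes a relative of MAP1B found along the microtubules of mature neurons, was recovered with even and with LacZ probes and had 0 odd peaks. The gene lies on chromosome 15 at 43510954 to 43531611, spans 20.66 kb and is transcribed from the plus strand. Even probes gave a peak 7 bins wide at chr15:43525441-43526630, with 988.6 reads per bin at rank 34 of 502. By reads in the whole peak, 6920, it was at rank 8 of the even list, and by p-value at rank 208. A second even peak at chr15:43523401-43523570 had 261 reads per bin, at rank 280.

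LacZ probes gave 4 MAP1A peaks, each 1 bin wide. The highest, at chr15:43522381-43522550, had 438 reads per bin at rank 33 of 722, and the next, at chr15:43522721-43522890, had 362 at rank 48. By p-value they ranked 440 and 508. The third, at chr15:43523401-43523570, had 91 reads and filled the same bin as the lower even peak. The fourth, at chr15:43527141-43527310, had 49 reads at rank 649. The LacZ peaks lay on both sides of the wide even peak, which overlapped none of them and was 510 bases from the nearest.

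In the shared bin the ratio of even over LacZ reads was 2.87, against a median of 2.44 over all 43 pairs of even and LacZ peaks with the same ends. The MAP1A peaks held 7181 reads over 1360 bases with even probes and 940 reads over 680 bases with LacZ probes, which was 1.49% and 0.428% of the reads in peaks. The 2 highest LacZ peaks had scores of 89 and 85 steps. Within 10% of these scores the even list had 1 peak of 1 bin for each, at 1750 and 907 reads, and the odd list 2 and 1, with the weakest at 1199 and 1768. Read numbers like those of the LacZ peaks lay below all of them, so the even and odd lists say little about these 2 bins. For the wide even peak the odd list had 11 peaks of like score, the weakest with 204 reads, and the LacZ list 20, the weakest with 72. Neither listed that place.

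MACF1 encodes a spectraplakin, a giant linker of microtubules and actin filaments. The gene lies on chromosome 1 at 39084167 to 39487138 and, at 402.97 kb, was the longest of the 7. Even probes gave 1 peak at chr1:39350751-39350920 with 224 reads, at rank 319 of 502. Its p-value of 0.00993 was at rank 500 of 502, close to the limit of the list. LacZ probes gave 2 peaks, at chr1:39429971-39430140 with 78 reads and at chr1:39430651-39430820 with 72 reads, at ranks 489 and 522 of 722. The even peak and the nearer LacZ peak were 79050 bases apart, and the odd list had 0 peaks in the gene. Like MAP1A, MACF1 thus had even and LacZ peaks and 0 odd peaks, a class that held 5.19% of the 847 genes. At the scores of the LacZ peaks, the weakest even peaks of 1 bin had 138 and 122 reads, and the weakest odd peaks 131 and 116. The LacZ read numbers lay below these, so the even and odd lists say little about those 2 bins. At the score of the even peak, the weakest odd peak had 204 reads, little below its 224, and the weakest LacZ peak 72.

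CLIP1 encodes CLIP-170, a protein that tracks growing plus ends through domains that recognise the tail of tubulin. The gene lies on chromosome 12 at 122271469 to 122422956 and is transcribed from the minus strand. Odd probes gave 2 peaks, at chr12:122319081-122319420 with 254.5 reads per bin and at chr12:122316701-122316870 with 197 reads. They ranked 224 and 309 of 542 by height, and 88 and 132 by p-value. Both lay in bins with a score of 1 step, the lowest in the lists.

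At scores within 2 steps of the CLIP1 peaks, the weakest even peak of 1 bin had 108 reads (64 peaks) and the weakest LacZ peak 38 reads (71 peaks). Neither list had a peak in the gene. A peak in the odd list alone was common, being the case for 21.5% of the 847 genes. The 2 places were 2210 bases apart, 103.536 and 106.086 kb from the start of the 151.49 kb gene.

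MAP2 and CAMSAP1 had LacZ peaks and 0 even and 0 odd peaks, as did 35.1% of the 847 genes. MAP2, on chromosome 2 at 209424047 to 209734112, encodes a microtubule-associated protein of dendrites. Its peaks lay at chr2:209653011-209653350 with 103 reads per bin and at chr2:209678511-209678680 with 116 reads, at ranks 403 and 352 of 722. CAMSAP1, on chromosome 9 at 135808487 to 135907546, encodes a protein that binds microtubule minus ends. Its peaks lay at chr9:135837141-135837480 with 164.5 reads per bin and at chr9:135837651-135837990 with 148, at ranks 211 and 249. They were 170 bases apart, and 1 of the 4 bins held a fixed score of 0.01 in place of a multiple of the step.

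At most of these places the even and odd lists began at read numbers above the LacZ peak. For MAP2, the weakest peaks of 1 bin and like score had 188 and 314 reads among even peaks and 162 and 276 among odd peaks. For CAMSAP1 the even minimum was 192 and 122 reads and the odd minimum 187 and 116, the first of each pair at the place whose score includes the fixed value. The LacZ read numbers lay below the even and odd minimum at both MAP2 places and at 1 CAMSAP1 place, and above both at the other, where the LacZ peak had 148 reads. Even or odd reads as few as the LacZ reads at those 3 places would thus lie below the listed peaks of like score, and the LacZ-only pattern of MAP2 does not show lower recovery with ZNF609 probes.

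Of the 24 peaks, 22 were centred past the middle of their gene in the direction of transcription, from 53.99% for the second place in CKAP5 to 90.48% for the LacZ peak of MAP1B. The other 2 were the even and odd peaks of CKAP5 at 49.05%. Over all protein-coding genes, direction was known for 1371 of 1677 pairs of a gene and a peak, counting a peak once for each gene it overlapped. Of those 1371 pairs, 65.2% were centred past the middle, with a median of 67.65% along the gene. The median of the 24 peaks was 70.65%. Places listed with 2 probe sets, in CKAP5, MAP1B and MAP1A, count once per list here, and peaks of a gene mostly lie close together. The 24 peaks are thus not separate places, and nothing is read from their share past the middle. None of the 24 peaks overlapped a second annotated gene, and none lay in a RefSeq promoter window of its gene.

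**Figure D4:**
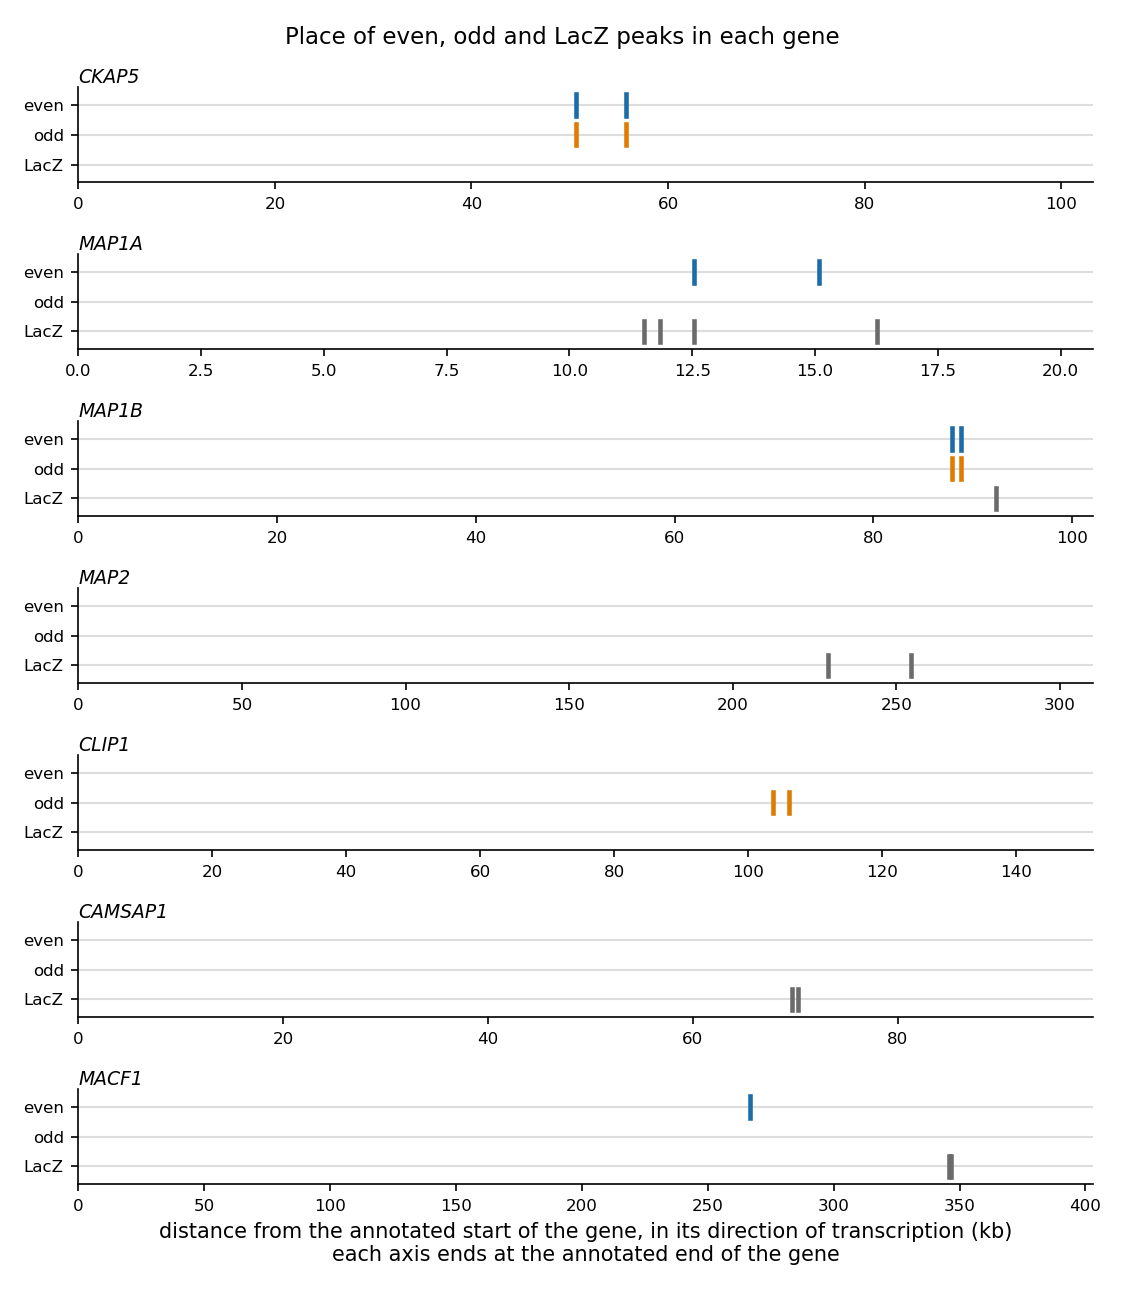
Place of the even, odd and LacZ peaks in each of the 7 genes, as distance in kb from the annotated start in the direction of transcription, with each axis ending at the annotated end. Ticks mark peak centres and are not drawn to peak width. The even and odd ticks coincide in CKAP5 and MAP1B, 1 even and 1 LacZ tick coincide in MAP1A, and the 2 LacZ ticks of MACF1 run together.

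The genes most like CKAP5 were then listed. Besides CKAP5, 6 protein-coding genes had 2 even and 2 odd peaks that all overlapped across those lists, and 0 LacZ peaks. They were ordered by how far the rank fractions of their highest even and odd peaks lay from those of CKAP5, over 2 libraries. The closest was the cohesin subunit gene RAD21, with 722 even and 268 odd reads per bin and a summed difference of 0.185. It was followed by MDN1 (0.218) and PES1 (0.260), which encode factors of ribosome assembly, and by the desmin gene DES (0.370). The splicing coactivator gene SRRM1 (0.473) and the chromatin gene BRD9 (0.544) were the farthest.

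A wider set of 180 genes for tubulins, motors and other microtubule proteins, without the 7 genes, was counted in the same way. Of these, 19 had a peak (10.6%), against 4.22% of all 20056 annotated protein-coding genes. Even peaks were found in 6, odd peaks in 6 and LacZ peaks in 12, against 1.54%, 1.64% and 2.22% of all annotated protein-coding genes, and 8 of the 19 had LacZ peaks alone, against 35.1% of the 847 genes with a peak. Expression was not used to choose the genes, so the shares say nothing particular about microtubule genes. PLEC was the 1 gene of the 180 with an even and odd place free of LacZ peaks, against 0.204% of all annotated protein-coding genes. PLEC encodes the cytoskeletal linker plectin, a relative of MACF1. Its shared bin had 245 reads with even probes and 227 with odd probes, and the gene had 3 further odd peaks and 2 LacZ peaks, of which 1 coincided with an odd peak.

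Among genes of proteins that bind the length of microtubules, 7 of 29 had a peak (24.1%), MAP1A, MAP1B and MAP2 included. A peak was found in 3 with even, 2 with odd and 5 with LacZ probes. Of all annotated protein-coding genes, 4.22% had a peak, 1.54% with even, 1.64% with odd and 2.22% with LacZ probes. MAP7D1 had 3 LacZ peaks, the highest with 425 reads at rank 35 of 722, and MAP7 had 1 LacZ peak with 115.5 reads per bin. MAP7D3 had 1 even peak with 213 reads, and MAP4, a widely expressed microtubule stabilizer, had 1 odd peak with 124 reads. Among plus-end and TOG-domain proteins, 5 of 31 genes had a peak (16.1%), against 4.22% of all annotated protein-coding genes. The 5 include CKAP5 and CLIP1, which were chosen with their peaks known. Of the 5, 3 had a peak with even, 3 with odd and 1 with LacZ probes. CKAP5 was the 1 gene of that list with even and odd peaks in the same place. KNSTRN, a kinetochore and spindle protein, had 3 odd peaks with 191 to 205 reads. CLIP3, a relative of CLIP1, had 1 even peak with 317 reads that also lay in LOC101927572. CDK5RAP2, a centrosome protein, had 1 even peak with 174 reads per bin and 3 LacZ peaks with 188 to 223.5. The partners of CKAP5 on this list, SLAIN1, SLAIN2 and TACC3, and the end-binding genes MAPRE1, MAPRE2 and MAPRE3, had 0 peaks in the 3 lists. They were singled out after their values were seen. With a peak in only 4.22% of all annotated protein-coding genes, nothing is read from their lack of peaks.

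Among minus-end binders and genes of the gamma-tubulin complex, 2 of 24 had a peak (8.33%), CAMSAP1 and NUMA1. NUMA1 had 2 odd peaks, with 165 and 300.0 reads per bin, that also lay in NUMA1-AS1, and 1 LacZ peak with 86.5. Of 25 tubulin and tubulin cofactor genes, 2 had a peak (8.0%). TUBA4A and TUBB3 had a LacZ peak each, with 67.5 and 55 reads per bin, and the TUBA4A peak also lay in STK16. Of 46 kinesin genes 4 had a peak (8.70%). KIF1A had an odd and a LacZ peak with the same ends, at 234 and 101 reads per bin, KLC1 an even peak with 222 reads, and KIF1C and KIF26B a LacZ peak each. Of 27 genes for severing, destabilizing and spindle assembly factors, 4 had a peak (14.8%), where 4.22% of all annotated protein-coding genes had one. STMN1, which encodes the tubulin-binding protein stathmin, had an even peak with 437 reads at rank 156 of 502. In that group TPX2 had an odd peak with 184.5 reads per bin, and PRC1 and MARK4 had LacZ peaks alone. The PRC1 peaks also lay in PRC1-AS1.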

How the data were processed

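Peaks of 3 pull-down libraries were analysed, and the input library was not used here. The tools named in the submitters' processing notes include the aligner STAR 2.5.2b and the demultiplexer bcl2fastq 2.0.2, with Picard, SAMtools, Trimmomatic and bedtools, on GRCh38. The peak caller Piranha is named by the deposited lists, with settings not given in the sources used here. Per library, the signal deposited by the authors is reads per bin of 170 bases, or the mean over joined bins, read from the values since the lists have no header (whole reads in 100% of peaks, tolerance 0.02). All deposited peaks had a p-value below 0.01. The deposited score has no stated meaning, and was a multiple of 1/4434 (tolerance 0.005 steps a bin) apart from bins at a fixed 0.01. Peaks were called per library.

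Gene spans and directions are those of RefSeq on GRCh38.p14, and coordinates count from 1. Exon positions and the sequence under the peaks were not used here. Peaks overlapped when they shared at least 1 base. A like score meant within 2 steps or, if wider, 10%. Ranks run from the highest reads per bin. Shares have exact Clopper-Pearson 95% intervals. The members and lists were chosen with earlier results of these data known. All peaks of the 7 genes were named. From each of 7 wider lists, genes with an even and odd place free of LacZ peaks and up to 4 others by best rank fraction were named, and up to 6 genes like CKAP5. SLAIN1, SLAIN2, TACC3 and the MAPRE genes were singled out after their values were seen, as were MYOD1 and MYOG. Overlap code was tested on simulated data. Python 3.11.15, pandas 2.3.3 and SciPy 1.17.1 were used. The alternatives were other overlap rules, p-value limits, list lengths, gene spans and rankings.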

Additional observations from a re-analysis of the deposited data

How the results depend on the processing

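No paired analysis was possible because each probe set had 1 library and no replicate number is given, and for the same reason no replicate could be left out. The counts of peaks in the 7 genes, of their overlaps, and of genes with an even and odd place free of LacZ peaks stayed within 1.5 times under a reciprocal overlap of 50%, a distance of 200 bases, lists of equal length, leaving out peaks over the fixed score, spans extended by 1000 bases and leaving out peaks in more than 1 gene. With p-values of at most 0.001, 4 even, 3 odd and 2 LacZ peaks were left in the 7 genes, while the lists as a whole kept 34.7%, 25.6% and 37.0% of their peaks. Of these even peaks 1 overlapped an odd peak and 0 a LacZ peak, against 12.1% and 13.8% of all 174 even peaks kept, and 1 gene, CKAP5, kept a place shared by even and odd probes. That limit keeps fewer peaks by construction.

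Ranks depended more on the measure. For each gene and list the best rank of any peak was taken, so the best peak by p-value need not be the highest. By p-value, the best ranks were 85 (even) and 129 (odd) in CKAP5, and 208 (even) and 419 (LacZ) in MAP1A. They were 57 (even) and 202 (odd) in MAP1B, 88 (odd) in CLIP1, 97 (LacZ) in CAMSAP1, and 500 (even) and 297 (LacZ) in MACF1. The highest peak itself ranked 106 by p-value in MAP1B (even). With LacZ probes it ranked 440 in MAP1A, 302 in CAMSAP1 and 317 in MACF1. By reads in the whole peak, which favours wide peaks, the best ranks were 321 (odd) in CKAP5, 8 (even) and 127 (LacZ) in MAP1A and 5 (odd) in MAP1B. The other 2 best ranks by p-value and 8 best ranks by reads moved by less than 1.5 times. In MAP2 the best rank by p-value was that of the lower peak, and the higher peak ranked 624. The lists hold no reads below each library's listed minimum, which limits any statement on a probe set without a peak.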
